A study of Homo sapiens with 10 samples.

Results

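Ribosome biogenesis and nucleolar factors were followed after knockdown of DDX41 in U2OS, a line of human osteosarcoma cells. The 54 genes were taken by symbol from a list of named factors, and all 54 were found by their Ensembl identifier among the 63299 genes of the count tables. They were divided by the step at which they act into the box C/D snoRNP core (3 genes), the H/ACA snoRNP core (4), the small-subunit (SSU) processome (22), factors of the late small-subunit precursor, called pre-40S (6), large-subunit (LSU) factors (13), and nucleolar chaperones and organisers (6). Ribosomes are assembled in the nucleolus, where RNA polymerase I makes a long precursor of ribosomal RNA. Small nucleolar ribonucleoproteins (snoRNPs) methylate or pseudouridylate this precursor, the SSU processome folds and cleaves its front part, and separate sets of GTPases, helicases and scaffold proteins mature the parts of the small and of the large subunit. Growing cells, tumour lines such as U2OS among them, depend on it for their supply of ribosomes.

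DDX41 is a DEAD-box helicase. Cells were transfected with pools of control siRNA (siCtrl) or of siRNA against DDX41 (siDDX41), polyadenylated RNA was collected after 48 h and made into stranded libraries, of which each group has 5. The labels give no other treatment for either group. Between 21807041 and 24896398 reads were counted per library. In all 20 pairs of libraries from the same group the counts were more scattered than sampling alone gives (chi-square per degree of freedom 1.84 to 6.18), so no library was taken as a repeat of another. Whether they come from separate cultures is not given in the sources used here, and the p-values then measure only the spread between these libraries, which may be technical. Levels are given as CPM, a gene's count as a share of the library's total in the usual unit of edgeR, with totals first scaled by TMM, a correction for genes that take large shares. A gene was called raised or lowered at an adjusted p under 0.01 in edgeR's quasi-likelihood test, fitted over all 16143 genes that passed the filter on low counts and adjusted over all of them by the Benjamini-Hochberg method. A CPM is a share of a library, so the amount of RNA per cell was not measured, and in bulk RNA fewer cells of a kind and less RNA per cell cannot be told apart.

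DDX41 (ENSG00000183258.11, chromosome 5 from 177511577 to 177516961 of GRCh38, minus strand) was measured at 49.1, 49.4, 47.3, 47.2 and 50.5 CPM in siCtrl replicates 1 to 5. In siDDX41 replicates 1 to 5 it was 11.5, 13.7, 12.4, 11.2 and 12.3 CPM. Every siDDX41 library was far below every siCtrl library, and replicate 2 kept the highest level among the knockdown libraries. The log2 fold change was -1.99 with a standard error of 0.05 (edgeR adjusted p = 4.47e-24). On log2 CPM, an exact permutation test of both sides gave p = 0.00794, the smallest that 5 against 5 libraries can give.

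The cell type label was set against markers of mesenchyme and bone, of endothelium and liver, and of epithelium. The mesenchymal and bone genes SPARC (mean 2807 CPM in siCtrl), VIM (2465 CPM) and COL1A1 (1875 CPM) were well counted, RUNX2, the osteoblast transcription factor, was at 32.4 CPM, and COL1A2 had too few counts to be tested. Of the 9 markers of this kind COL5A1 (log2 fold change 0.69), CD44 (0.37) and SPARC (0.18) were raised, THY1 (-0.74), ALPL (-0.70), RUNX2 (-0.40) and VIM (-0.09) were lowered, and COL1A1 (-0.09) was not called. Their summed level was 7781 to 8088 CPM in siCtrl and 8001 to 8449 CPM in siDDX41, with overlap. The 5 endothelial and liver markers summed to 5.31 to 6.31 CPM in siCtrl and to 1.89 to 3.14 CPM in siDDX41, and VWF held the largest share of those counts. The 6 epithelial markers summed to 972 to 1092 CPM in siCtrl and 1564 to 1759.6 CPM in siDDX41. Nearly all of that sum came from the overlapping keratin genes KRT8 (log2 fold change 0.46) and KRT18 (0.98), named here after their values were seen, while the adhesion gene EPCAM was at 7.39 to 8.62 CPM in siCtrl and 7.49 to 9.42 CPM in siDDX41 and was not called (0.06). The adhesion gene CDH1, also not called, stayed at or below 1.29 CPM and KRT19 and ESRP1 had too few counts to be tested. The part of these shifts in the values of the ribosome biogenesis genes was not tested.

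Of the 54 members, 53 passed the filter on low counts. The exception was FBL, the methyltransferase of the box C/D snoRNP (ENSG00000105202.7, chromosome 19 from 39834458 to 39846379 of GRCh38, minus strand), which was listed at 0 in all 10 libraries. Genes that every cell uses, the ribosomal protein genes RPS18 and RPS25, were also listed at 0, so the 0 of FBL is not read as a level and no fold change is given. Of the 53 tested members 37 were raised, where 30.3% of all tested genes were raised, and 4 were lowered, where 32.1% of all tested genes were lowered. These were 69.8% and 7.55% of the members, and the other 12 were not called in either direction. The members were chosen with earlier results of these data known, so they are not an unselected set beside all tested genes. The median log2 fold change of the members was 0.20, and that of all tested genes was -0.00. All 5 siDDX41 libraries lay above all 5 siCtrl libraries for 38 members, a pattern found in 26.7% of all tested genes, and below them for 5 members, a pattern found in 29.3% of all tested genes. The changes were small in size: the log2 fold changes of the members ran from -0.55 (TCOF1) to 0.67 (RRP12), and none was beyond 1 in either direction, whereas 1393 of all tested genes were. The members were also well counted, with a median of 77.4 CPM in siCtrl against 20.4 CPM over all tested genes, and a change of a given size is called more readily at a higher count. With a further limit of 0.25 on the size of the log2 fold change, 22 members were raised and 1, TCOF1, was lowered, beside 3406 raised and 4101 lowered of all 16143 tested genes.

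**Figure D1:**
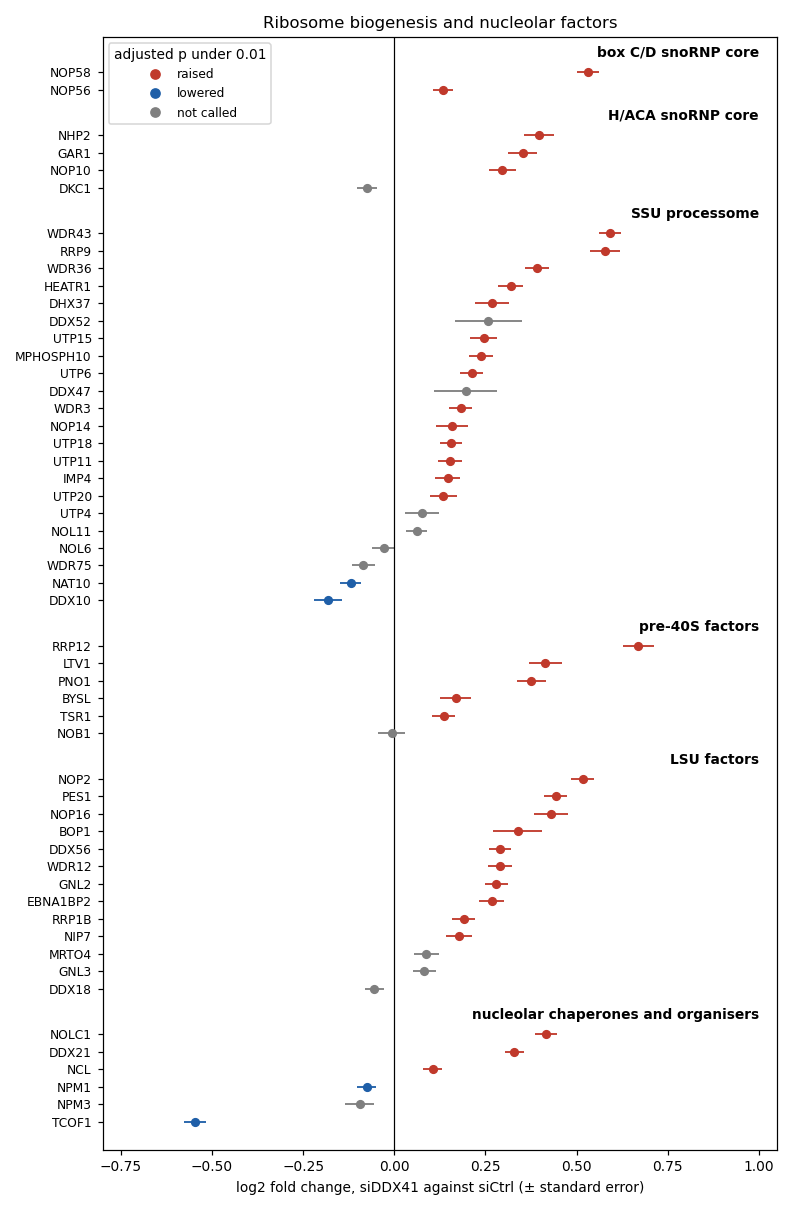
Log2 fold change of the 53 tested members, siDDX41 against siCtrl, grouped by class, with the standard error as a bar and the call as colour. Most points lie right of 0, with TCOF1 at -0.55 on the far left and RRP12 at 0.67 on the far right.

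The box C/D core was taken first. Its proteins assemble on guide RNAs that direct ribose methylation of the ribosomal RNA precursor, and NOP56 and NOP58 are the paired scaffold proteins of the particle. NOP58 (ENSG00000055044.10, chromosome 2 from 202265736 to 202303661 of GRCh38, plus strand) was at 127, 132, 133, 131 and 129 CPM in siCtrl and at 192, 176, 198, 188 and 189 CPM in siDDX41. NOP56 (ENSG00000101361.15, chromosome 20 from 2652593 to 2658393 of GRCh38, plus strand) was at 176, 165, 169, 169 and 173 CPM in siCtrl and at 187, 180.4, 188, 189.7 and 189.8 CPM in siDDX41. For both genes all siDDX41 libraries were above all siCtrl libraries, and siDDX41 replicate 2 was the lowest of its group. NOP58 rose by 44.5% (log2 fold change 0.53, standard error 0.03, edgeR adjusted p = 1.23e-15) and NOP56 by 9.74% (log2 fold change 0.13, standard error 0.03, edgeR adjusted p = 7.69e-05). The ratio of NOP58 to NOP56 in CPM, which was chosen, like all ratios given here, after the values were seen and is not corrected for gene length, was 0.724, 0.803, 0.786, 0.777 and 0.743 in siCtrl and 1.03, 0.977, 1.053, 0.992 and 0.994 in siDDX41. It was higher in every knockdown library than in any control.

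H/ACA snoRNPs guide the conversion of uridine to pseudouridine, and the same 4 proteins are found in telomerase. Their enzyme, DKC1 (ENSG00000130826.16, chromosome X from 154762742 to 154777689 of GRCh38, plus strand), was at 169, 160.3, 163, 168 and 163 CPM in siCtrl and 155, 151, 159, 159 and 157 CPM in siDDX41. NHP2, an RNA-binding core protein (ENSG00000145912.8, chromosome 5 from 178149463 to 178153894 of GRCh38, minus strand), was at 80.8, 90.8, 76.1, 80.7 and 84.4 CPM in siCtrl and 111, 101, 109.96, 107 and 115 CPM in siDDX41. GAR1, which regulates access to the catalytic site, was at 35.5, 36.4, 36.3, 35.5 and 35.5 CPM in siCtrl and 46.1, 46.1, 46.7, 47.7 and 42.1 CPM in siDDX41. The groups did not overlap for any of the 3 genes, but DKC1 lay lower in siDDX41 and the others higher. GAR1 (log2 fold change 0.35, standard error 0.04, edgeR adjusted p = 3.32e-09) and NHP2 (log2 fold change 0.40, standard error 0.04, edgeR adjusted p = 3.34e-09) rose, as did NOP10, the smallest protein of the core (log2 fold change 0.30). DKC1 did not pass the threshold (log2 fold change -0.08, standard error 0.03, edgeR adjusted p = 0.0163), and it passed at an adjusted p under 0.05, with total count scaling and without siCtrl replicate 2 (-0.09). The ratio of NHP2 to DKC1 in CPM was 0.479, 0.566, 0.467, 0.480 and 0.517 in siCtrl and 0.715, 0.665, 0.691, 0.673 and 0.733 in siDDX41. It was higher in every knockdown library, as were the ratios of GAR1 and of NOP10 to DKC1. Of the exon bases of NHP2, 28.0% are shared with RMND5B on the other strand, so its counts are uncertain if strand was not used in counting.

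**Figure D2:**
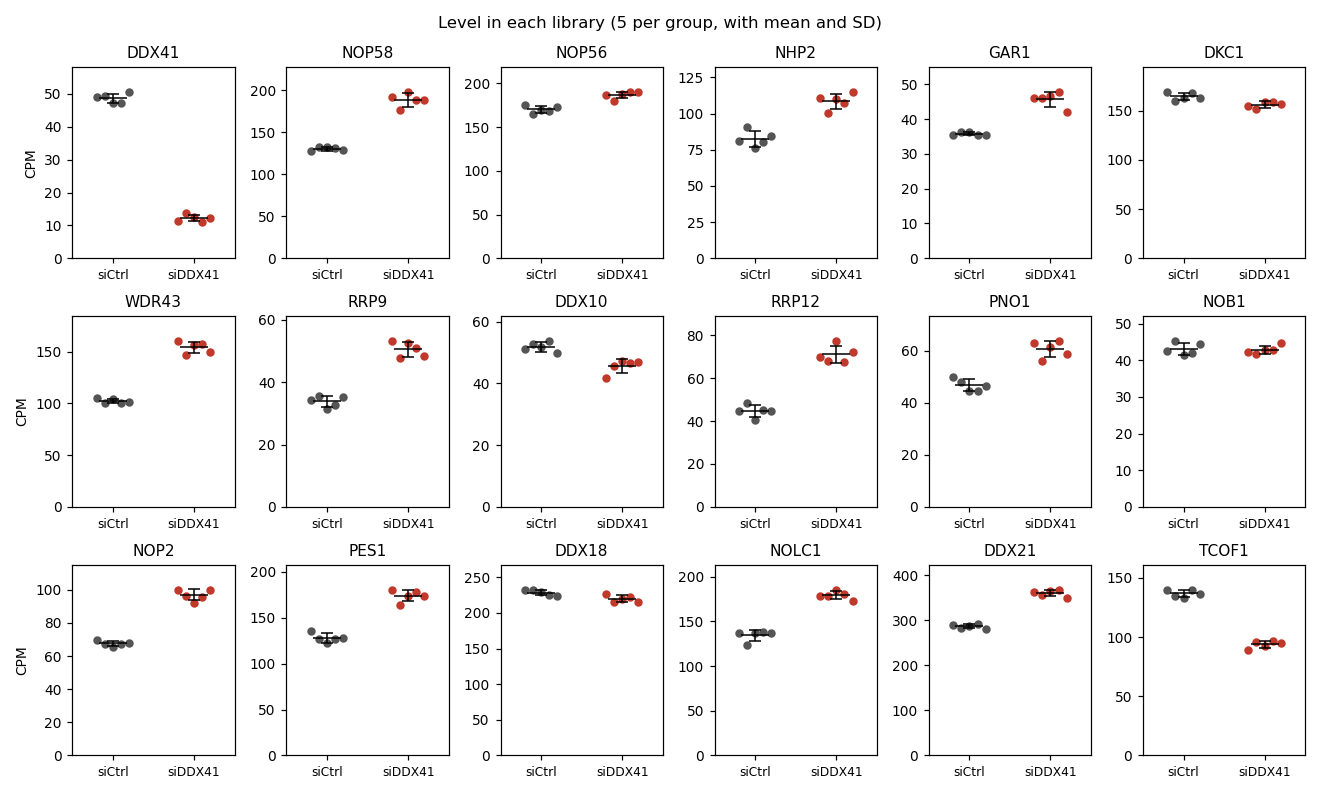
Level in CPM (vertical axis from 0) in each of the 5 siCtrl and 5 siDDX41 libraries for DDX41 and 17 members, with the mean and SD in black. The groups are apart for most genes, with DDX41, DKC1, DDX10 and TCOF1 lower in siDDX41, and they overlap for NOB1 and DDX18.

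The SSU processome is a very large particle that forms on the front part of the precursor around the U3 snoRNP. Of its 22 members 14 were raised, 2 were lowered and 6 were not called, beside 30.3% raised and 32.1% lowered of all tested genes. The median log2 fold change of the 22 members was 0.17. WDR43, a protein of the first module to bind the precursor (ENSG00000163811.11, chromosome 2 from 28894667 to 28948219 of GRCh38, plus strand), was at 105, 100.3, 104, 100.3 and 102 CPM in siCtrl and 160.4, 147, 156, 157 and 149.9 CPM in siDDX41. RRP9, a protein of the U3 snoRNP itself (ENSG00000114767.6, chromosome 3 from 51933429 to 51941904 of GRCh38, minus strand), was at 34.3, 35.7, 31.5, 32.6 and 35.3 CPM in siCtrl and 53.2, 47.9, 52.5, 50.9 and 48.3 CPM in siDDX41. Both genes were higher in each siDDX41 library than in any siCtrl library, and replicate 2 was again the lowest knockdown library. WDR43 rose by 50.7% (log2 fold change 0.59, standard error 0.03, edgeR adjusted p = 9.56e-17) and RRP9 by 49.3% (log2 fold change 0.58, standard error 0.04, edgeR adjusted p = 4.76e-13).

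Calls differed among the genes of the same early module as WDR43, a difference that was not tested. HEATR1 (log2 fold change 0.32) and UTP15 (0.24) rose. UTP4 (0.08), NOL11 (0.06) and WDR75 (-0.09) were not called, though WDR75 was called lowered with total count scaling (-0.10) and with a correction for GC content (-0.16). Of the module that binds next, WDR36 (0.39), UTP6 (0.21), WDR3 (0.18) and UTP18 (0.16) rose. TBL3, which belongs to the same module, is not a member and was named after its values were seen, was not called (0.07), and PWP2, another of its proteins, had too few counts to be tested. The U3-associated proteins MPHOSPH10 (0.24) and IMP4 (0.15) rose, and so did UTP11 (0.15). NOL6 had a log2 fold change of -0.03 and was not called. NOP14 (0.16) and UTP20 (0.13) were called raised but lost the call without single libraries. NOP14 lost it without siDDX41 replicate 4 (0.14), and UTP20 without siCtrl replicate 1 (0.12), without siCtrl replicate 5 (0.11) and with a correction for GC content (0.08).

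The helicases and modifying enzymes of the particle were split. DHX37, the helicase that frees the U3 snoRNA, rose (log2 fold change 0.27). DDX10 (ENSG00000178105.9, chromosome 11 from 108665058 to 108940999 of GRCh38, plus strand), a DEAD-box helicase, was at 51.1, 52.7, 51.8, 53.8 and 49.8 CPM in siCtrl and 41.6, 45.6, 47.4, 46.5 and 47.0 CPM in siDDX41. The groups were apart with siDDX41 lower in every library and replicate 1 the lowest, and DDX10 fell by 11.9% (log2 fold change -0.18, standard error 0.04, edgeR adjusted p = 0.000119). NAT10, the enzyme that acetylates cytidines of the small-subunit RNA, also fell, from 85.5 ± 1.41 to 78.7 ± 1.44 CPM (SD, n = 5 libraries each; log2 fold change -0.12), and it lost the call with a correction for GC content (-0.06). The helicases DDX47 (log2 fold change 0.20, edgeR adjusted p = 0.0456) and DDX52 (0.26, edgeR adjusted p = 0.0138) were not called, and both were thinly counted, at 5.37 ± 0.403 and 3.85 ± 0.2997 CPM (SD, n = 5) in siCtrl. DDX47 shares 36.5% of its exon bases with APOLD1 on the same strand, and its counts are uncertain for that reason.

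Factors of the pre-40S particle act from the late nucleolus to the cytoplasm. Of the 6 members 5 were raised and none was lowered, beside 30.3% raised and 32.1% lowered of all tested genes. The median log2 fold change of the 6 members was 0.27. RRP12, a repeat protein of the particle needed for its export (ENSG00000052749.13, chromosome 10 from 97356358 to 97426076 of GRCh38, minus strand), was at 44.6, 48.3, 40.7, 45.3 and 44.6 CPM in siCtrl and 70.1, 68.2, 77.4, 67.7 and 72.1 CPM in siDDX41. PNO1, which binds next to the final cleavage site, was at 49.9, 48.0, 44.6, 44.7 and 46.7 CPM in siCtrl and 63.2, 56.2, 61.4, 63.9 and 59.0 CPM in siDDX41. NOB1, the nuclease that makes that cleavage, was at 42.6, 45.3, 41.3, 41.9 and 44.4 CPM in siCtrl and 42.3, 41.8, 42.8, 42.9 and 44.7 CPM in siDDX41. RRP12 and PNO1 were higher in all knockdown libraries, and the 2 groups of NOB1 overlapped almost fully. RRP12 had the largest rise among the members (log2 fold change 0.67, standard error 0.04, edgeR adjusted p = 4.18e-14), and PNO1 rose by 29.7% (log2 fold change 0.38, standard error 0.04, edgeR adjusted p = 1.65e-09). NOB1, the partner of PNO1, had a log2 fold change of -0.01 with a standard error of 0.04. The assembly and release factors LTV1 (0.41), BYSL (0.17) and TSR1 (0.14) rose.

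RefSeq's table for GRCh38.p14 gave a start for 45 of the 54 members, and the 250 bases before the first start listed were searched on both strands for the 6 letters CACGTG, an E-box that the MYC family and other factors can bind, and separately for the core letters of ETS family motifs, CCGGAA. The E-box was found in 7 of 45 member promoters (15.6%), in 8.62% of the 11491 promoters of tested genes and in 6.49% of all 27305 promoters of the table. The ETS core was found in 20 of 45 member promoters (44.4%), in 24.0% of promoters of tested genes and in 14.8% of all promoters. It was in 17 of 31 promoters of raised members and in 2 of 13 promoters of tested members that were not raised. The E-box was in 5 of 31 and 2 of 13 of these promoters. IMP4, NOP10 and UTP18 hold both motifs and rose, and UTP4 holds both and was not called (log2 fold change 0.08). Of 3 more motifs searched, CCAAT was in 38.7% of promoters of raised and 38.5% of those of other tested members (34.5% of promoters of tested genes, 33.0% of all). The GC box GGGCGG was in 71.0% and 69.2% (65.7% of promoters of tested genes, 42.3% of all), and TATAAA in 2 of 31 and 0 of 13 (5.53% of promoters of tested genes, 11.1% of all). None of these splits was tested. The ETS core was also in 49.4% of 89 promoters of the other ribosome biogenesis genes described below, and in 46.0% of 63 promoters of ribosomal protein genes. The E-box was in 12.4% and 4.76% of these promoters. A forward and a reverse ETS match can share letters, the E-box and the ETS core cannot, CCAAT and GGGCGG can share end letters with the ETS core, and a match in a window is a string of letters and not a bound site. The windows printed run 5′ to 3′ on the strand of the gene with E-box and ETS letters in capitals, and lie outside annotated exons. Chosen after the values were seen, they are shown because UTP18 holds the E-box and the ETS core and rose, LTV1 and RRP9 hold the ETS core and rose, WDR43 rose with neither of these, and NOB1, also with neither, was not called. The windows are chr17:51260296-51260545 on the plus strand, chr6:143843088-143843337 on the plus strand, chr3:51941905-51942154 on the minus strand, chr2:28894417-28894666 on the plus strand and chr16:69754927-69755176 on the minus strand, directly before each gene, and the one of LTV1 also lies inside a second annotated gene without touching its exons.
UTP18: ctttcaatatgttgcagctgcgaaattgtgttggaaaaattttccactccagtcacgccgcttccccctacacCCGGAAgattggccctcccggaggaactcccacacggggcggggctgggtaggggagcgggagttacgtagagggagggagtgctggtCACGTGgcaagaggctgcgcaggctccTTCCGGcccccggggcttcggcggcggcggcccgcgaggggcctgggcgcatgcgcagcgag
LTV1: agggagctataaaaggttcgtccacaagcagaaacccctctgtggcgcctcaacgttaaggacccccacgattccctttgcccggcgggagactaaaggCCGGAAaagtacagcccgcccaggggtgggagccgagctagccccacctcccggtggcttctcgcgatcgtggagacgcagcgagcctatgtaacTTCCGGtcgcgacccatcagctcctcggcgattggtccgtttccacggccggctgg
RRP9: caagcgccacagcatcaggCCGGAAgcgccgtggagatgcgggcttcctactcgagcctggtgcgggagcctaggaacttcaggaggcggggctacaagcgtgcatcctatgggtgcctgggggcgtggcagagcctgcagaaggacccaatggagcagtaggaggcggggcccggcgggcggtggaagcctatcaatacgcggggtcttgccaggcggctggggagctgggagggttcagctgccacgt
WDR43: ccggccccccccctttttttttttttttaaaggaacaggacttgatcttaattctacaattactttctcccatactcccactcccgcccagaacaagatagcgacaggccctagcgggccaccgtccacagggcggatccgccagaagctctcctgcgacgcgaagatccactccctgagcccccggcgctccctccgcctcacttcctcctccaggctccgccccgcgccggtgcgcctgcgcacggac
NOB1: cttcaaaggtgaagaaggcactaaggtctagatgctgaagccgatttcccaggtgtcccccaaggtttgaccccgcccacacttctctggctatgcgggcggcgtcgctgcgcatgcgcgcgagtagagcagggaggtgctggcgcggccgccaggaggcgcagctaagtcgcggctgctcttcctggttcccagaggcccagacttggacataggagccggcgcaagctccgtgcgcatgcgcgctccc

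LSU factors build the precursor of the large subunit. Of 13 members 10 were raised and none was lowered, beside 30.3% raised and 32.1% lowered of all tested genes. The median log2 fold change of the 13 members was 0.28. NOP2, which methylates a cytosine of the large-subunit RNA (ENSG00000111641.11, chromosome 12 from 6556863 to 6568691 of GRCh38, minus strand), was at 69.6, 67.6, 65.8, 67.6 and 68.2 CPM in siCtrl and 100.2, 96.2, 92.2, 96.0 and 100.04 CPM in siDDX41. PES1 (ENSG00000100029.17, chromosome 22 from 30576625 to 30607083 of GRCh38, minus strand), which forms a complex with BOP1 and WDR12, was at 136, 127, 122, 127 and 128 CPM in siCtrl and 181, 164, 173, 177 and 174 CPM in siDDX41. DDX18, a DEAD-box helicase, was at 232, 233, 229, 226 and 223 CPM in siCtrl and 227, 216, 219.7, 222 and 216 CPM in siDDX41. The siDDX41 libraries of NOP2 and PES1 were all above the controls, and those of DDX18 overlapped with them. NOP2 rose by 43.0% (log2 fold change 0.52, standard error 0.03, edgeR adjusted p = 9.31e-15), PES1 by 36.0% (log2 fold change 0.44, standard error 0.03, edgeR adjusted p = 2.22e-13), and DDX18 was not called (log2 fold change -0.05, standard error 0.03, edgeR adjusted p = 0.063), though it was called lowered with a correction for GC content (-0.12).

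The partners of PES1 rose with it, WDR12 with a log2 fold change of 0.29 and BOP1 with 0.34. BOP1 had the widest spread of any tested member among the siCtrl libraries, with a coefficient of variation of 10.7%, against a median of 3.27% over the members. NOP16 (0.43), the helicase DDX56 (0.29), the GTPase GNL2 (0.28), EBNA1BP2 (0.27), RRP1B (0.19) and NIP7 (0.18) also rose. Nucleostemin, encoded by GNL3 (0.08), and MRTO4 (0.09), which holds the place of a stalk protein in the precursor, were not called. MRTO4 was called raised without siCtrl replicate 2 (0.11) and with a correction for GC content (0.18).

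Nucleolar chaperones and organisers had calls in both directions: 3 of 6 were raised and 2 lowered, and the median log2 fold change was 0.01. Over all tested genes 30.3% were raised and 32.1% lowered. NOLC1 and TCOF1 are related, heavily phosphorylated proteins that bring RNA polymerase I and snoRNPs together. NOLC1 (ENSG00000166197.16, chromosome 10 from 102152176 to 102163871 of GRCh38, plus strand) was at 137, 124, 137, 138 and 137 CPM in siCtrl and 179, 179, 186, 181 and 173 CPM in siDDX41. TCOF1, known as treacle (ENSG00000070814.17, chromosome 5 from 150357629 to 150400308 of GRCh38, plus strand), was at 140.1, 135, 133, 139.9 and 137 CPM in siCtrl and 89.2, 95.7, 92.8, 96.4 and 94.6 CPM in siDDX41. The groups of both genes were well apart, but in opposite directions. NOLC1 rose by 33.4% (log2 fold change 0.42, standard error 0.03, edgeR adjusted p = 6.66e-13) and TCOF1 fell by 31.5% (log2 fold change -0.55, standard error 0.03, edgeR adjusted p = 5.36e-16). Their ratio, NOLC1 to TCOF1 in CPM, was 0.977, 0.919, 1.03, 0.984 and 1.00 in siCtrl and 2.00, 1.87, 2.00, 1.87 and 1.83 in siDDX41, with no overlap.

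The helicase DDX21 was at 290.2, 283, 288, 292 and 280.4 CPM in siCtrl and 363, 356, 364, 368 and 351 CPM in siDDX41. Every knockdown library was higher (log2 fold change 0.33, standard error 0.03, edgeR adjusted p = 1.55e-12). The abundant chaperones changed little. NCL, or nucleolin, rose from 800.1 ± 26.2 to 861 ± 11.6 CPM (SD, n = 5; log2 fold change 0.11). NPM1, or nucleophosmin, was called lowered, from 985 ± 11.5 to 935 ± 30.2 CPM (SD, n = 5; log2 fold change -0.08, edgeR adjusted p = 0.0091), but its groups overlapped and the call was lost under 13 of the 17 alternatives other than a minimum fold change, with log2 fold changes from -0.14 to -0.06 over all of them. Among the fits that left out 1 library, NPM1 was called only without siDDX41 replicate 4 (-0.09), and without each of the other 9 its log2 fold change was between -0.08 and -0.06. NPM3 was not called (log2 fold change -0.09).

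Per kilobase of exon, the most abundant members in siCtrl were NPM1 (119 CPM per kilobase), NCL (89.7) and NHP2 (55.9), and the lowest were DDX52 (0.404), DDX47 (1.06) and DDX10 (2.87). These levels were divided by the length of all annotated exons, which is longer than a single transcript, so they understate the level of genes with many annotated exons. The level of DDX47 is also uncertain, since it shares exon bases with APOLD1 on the same strand. NPM1 alone held 41.3% of the summed CPM of its class, and that sum overlapped between the groups, at 2424, 2338, 2393, 2429.8 and 2351 CPM in siCtrl and 2457, 2407, 2508, 2526 and 2451 CPM in siDDX41. The summed level of the 53 tested members (FBL, listed at 0, adds nothing to it) was 6115, 6028, 5976, 6069 and 5979 CPM in siCtrl and 6761, 6523, 6802, 6801 and 6701 CPM in siDDX41. Each knockdown library was higher in that sum, and the ratio of the means was 1.11. The same ratio was 1.248 for the box C/D core, where the sum holds NOP56 and NOP58 alone, 1.12 for the H/ACA core, 1.14 for the SSU processome, 1.22 for pre-40S factors and 1.18 for LSU factors, and the groups did not overlap in these 5 sums. Differences between the classes were not tested.

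**Figure D3:**
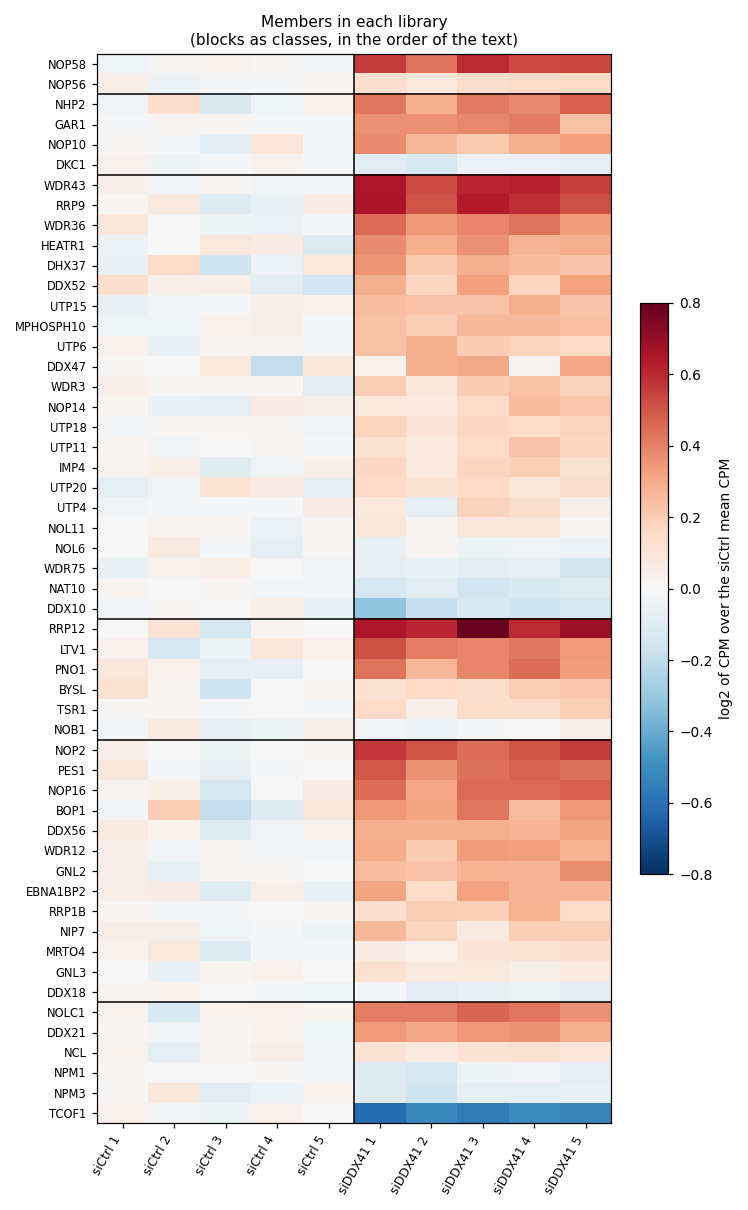
Each member (rows, by class) in each library (columns), as the log2 of its CPM over the mean of the siCtrl libraries, in red where higher and blue where lower. The siDDX41 columns are red in most rows, and TCOF1 is the bluest row.

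The members were not at the same level in all knockdown libraries. The siDDX41 replicate 2 library had the lowest value of its group for 30 of 53 members (56.6%), against 22.0% of all tested genes. These include members that rose, such as NOP58, and members with a negative log2 fold change, such as NPM1 and DKC1. For NPM1 and DKC1 the lowest value lay furthest from the controls, while TCOF1 and DDX10 were lowest in siDDX41 replicate 1. The pattern is thus a low level and not always a smaller change. The siDDX41 replicate 2 library also had the most DDX41 left, at 13.7 CPM, and whether the 2 are related was not tested. Among the controls, replicate 3 was lowest for 21 members (39.6%), against 23.7% of all tested genes. Without siDDX41 replicate 2 the number of raised members was 37, and without siCtrl replicate 3 it was 37, so the count did not turn on either library.

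Several members carry snoRNA genes within their own span, on the same strand. GENCODE 44 places 26 snoRNA genes inside 8 members: NOP56, NOP58, DKC1, WDR43, NOL11, TSR1, GNL3 and NCL. NOP58 holds 4 of them, all of the box C/D kind, so a core protein of this particle and RNAs of the same kind come from a single gene. WDR43 holds 3 box C/D genes and DKC1 2 H/ACA genes. Of the 8 hosts 5 were raised, none was lowered and 3 were not called, beside 30.3% raised and 32.1% lowered of all tested genes. The difference between hosts and other members was not tested, and the snoRNAs themselves are not measured in libraries of polyadenylated RNA.

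The rest of the pathway was described with 4 further lists that hold no member, likewise chosen with earlier results of these data known. Of 103 genes 96 were tested, 67 were raised and 12 lowered, with a median log2 fold change of 0.22. These were 69.8% and 12.5% of the 96, where 30.3% of all tested genes were raised and 32.1% lowered. The same shares of all tested genes stand beside the counts of each list below. Of the 7 genes not tested 6 were listed at 0 in every library (ZNHIT3, AATF, DDX24, SURF6, POLR1H and RRN3), and PWP2 had at most 14 counts in a library. Among other genes of snoRNP assembly 8 of 10 were raised and 2 lowered (median 0.30). In the chaperone complex that loads the core proteins, PIH1D1 (0.58) and the ATPase RUVBL1 (0.25) rose. SNU13, the protein that binds first to box C/D RNA, fell (-0.17), and so did SHQ1, the chaperone of DKC1 (-0.14), which lost its call with DESeq2's Wald test (-0.14), without siCtrl replicate 4 (-0.13) and without siDDX41 replicate 2 (-0.12).

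Other SSU processome and pre-40S genes numbered 29 tested, of which 21 were raised and 3 lowered (median 0.17). PDCD11, a long RNA-binding protein used for both subunits, and UTP3 rose with log2 fold changes of 0.54 and 0.53. KRR1 (-0.19) and NOL10 (-0.12) fell. Of 44 other LSU factors 30 were raised and 5 lowered (median 0.24). The GTPases GTPBP4 (0.52) and GNL3L (0.50) rose. RSL24D1, a placeholder for a ribosomal protein of the large subunit, was at 78.0, 79.6, 71.1, 76.8 and 76.2 CPM in siCtrl and 43.6, 44.9, 43.4, 46.1 and 45.1 CPM in siDDX41. It fell by 41.5% (log2 fold change -0.77, standard error 0.04, edgeR adjusted p = 1.04e-17), with no overlap of the groups, and the helicase DDX54 fell as well (-0.58).

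**Figure D4:**
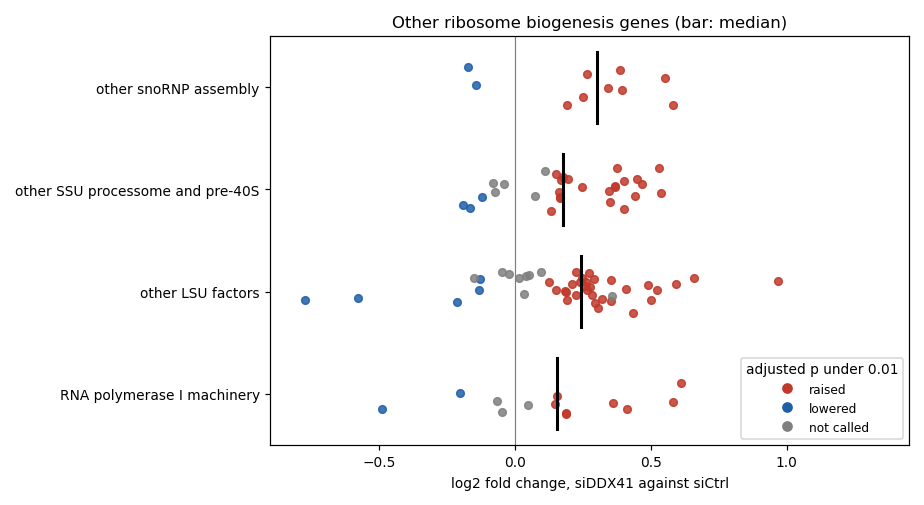
Log2 fold change of the 96 tested genes of the 4 other ribosome biogenesis lists, siDDX41 against siCtrl, coloured by call, with the list median as a black bar. The medians lie between 0.15 and 0.30.

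The RNA polymerase I machinery had 13 tested genes, 8 raised and 2 lowered (median 0.15). UBTF, the factor that keeps ribosomal RNA genes open, was at 282, 275, 282, 269 and 283 CPM in siCtrl and 192, 198, 194, 197 and 209.6 CPM in siDDX41. All knockdown libraries were lower (log2 fold change -0.49, standard error 0.03, edgeR adjusted p = 1.58e-15). The subunit POLR1G rose (0.61), with 49.8% of its exon bases shared with ERCC1 on the other strand. POLR1C, a subunit shared with RNA polymerase III, was at 30.1, 29.7, 27.8, 28.1 and 30.7 CPM in siCtrl and 48.5, 39.4, 43.5, 44.2 and 43.5 CPM in siDDX41. POLR1D, which pairs with POLR1C in both enzymes, was at 63.4, 60.7, 59.7, 63.5 and 61.8 CPM in siCtrl and 52.5, 51.3, 53.5, 56.4 and 54.6 CPM in siDDX41. The groups of both genes were apart, POLR1C upward (log2 fold change 0.58, standard error 0.05, edgeR adjusted p = 4.12e-12) and POLR1D downward (log2 fold change -0.20, standard error 0.03, edgeR adjusted p = 6.66e-06). The genes known to be mutated in Treacher Collins syndrome, a disorder of facial development, are TCOF1, POLR1D, POLR1C and POLR1B, a set named after its values were seen. TCOF1 and POLR1D were lowered, and POLR1C and POLR1B (log2 fold change 0.19) were raised. MYC, a transcription factor known to drive this pathway and likewise named after its values were seen, went from 64.4 ± 2.25 to 91.9 ± 3.27 CPM (SD, n = 5; log2 fold change 0.51, standard error 0.03, edgeR adjusted p = 3.91e-14). Its part in the values of the members was not tested.

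The ribosomal proteins, which these factors assemble, moved little as a group. Of 79 cytosolic ribosomal protein genes 75 were tested, 17 were raised and 17 lowered, and the median log2 fold change was 0.03, above 0 under every scaling tried. Both shares, 22.7% each, were below those of all tested genes. Their summed level was 43502, 45159.9, 42425, 43685 and 43731 CPM in siCtrl and 41950.2, 41004, 41349, 42788 and 43306 CPM in siDDX41, the groups overlapped, and the ratio of the means was 0.963, so the sum and the median differ in sign. The counts moved with the processing: with a correction for GC content 27 were raised and 18 lowered, and with the limit of 0.25 on the log2 fold change 1 was raised and 8 were lowered.

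**Figure D5:**
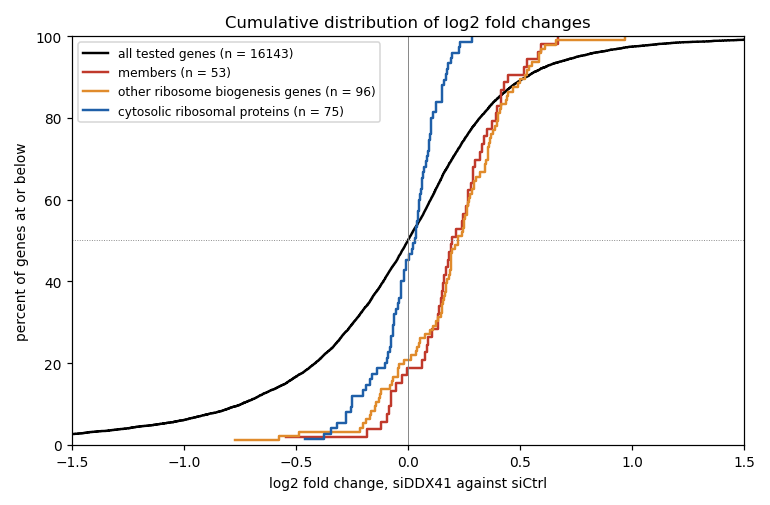
Percent of genes at or below each log2 fold change, siDDX41 against siCtrl, for all 16143 tested genes, the 53 members, 96 other ribosome biogenesis genes and 75 cytosolic ribosomal protein genes, with the horizontal axis ending at -1.5 and 1.5. The curves of the members and of the other ribosome biogenesis genes cross 50% right of 0, at 0.20 and 0.22, and that of the ribosomal proteins near it, at 0.03.

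The median GC content of the members' transcripts was 46.3%, against 48.5% over the 15936 tested genes with a value, and the class medians ran from 41.8% in the SSU processome to 52.4% in pre-40S factors. Their median gene span was 24.7 kilobases, against 29.8 over all tested genes, with class medians from 6.83 in the H/ACA core to 35.5 in the SSU processome. Exon bases were shared with another gene that held at least 10% of the member's own counts in 10 members, of which 8 were raised. They were HEATR1, NHP2, NIP7, NOP14, NOP16, TSR1, UTP15 and WDR12 among the raised, and DDX47 and GNL3 among those not called. Their counts are uncertain, and without these 10 members 29 were raised and 4 lowered. Among the other pathway genes named above, PIH1D1, RUVBL1, SNU13, KRR1 and POLR1C also share exon bases with a well-counted neighbour on the other strand, so their counts are uncertain in the same way. Pseudogene copies named after a member held at most 0.587% of its counts, the highest share being that of NPM1.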

How the data were processed

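The deposited tables hold raw read counts per gene, 1 library each, made by the authors with STAR 2.7 and featureCounts 1.6 from stranded polyA libraries; whether strand was used in counting and how reads with several matches were treated is not given. Versions were removed from Ensembl identifiers, and symbols, exons and overlaps were taken from GENCODE 44. Genes passed filterByExpr by group, and counts were scaled by TMM and tested with edgeR 4.0.16 (glmQLFit, robust) in R 4.3.3, siDDX41 against siCtrl, with Benjamini-Hochberg adjustment over all tested genes and a threshold of 0.01. Standard errors were derived from the test, as the size of the log2 fold change over the square root of its F statistic. They are therefore not separate from the p-values. The typical spread between libraries of a group was a biological coefficient of variation of 3.65%. Members and lists were chosen with earlier results of these data known. Values in every library were given for the 2 members per class with the smallest adjusted p among positive and the 1 among negative fold changes, and for further genes chosen after their values were seen (UBTF, POLR1C, POLR1D, RSL24D1). Elsewhere, the 2 genes with the smallest adjusted p per direction were named in each further list. Alternatives were DESeq2 1.42.0 size factors and test, total count scaling, no filter, replicate number as a block, other thresholds, leaving out each library and a GC correction. The procedure was tested on simulated data with 15886 genes tested. It recovered 84 of 100 genes changed 1.25-fold and 91 of 100 changed 1.5-fold, with 2 false calls in all. A single spread was used for every simulated gene, and far fewer genes were changed than were called in the data. Smaller changes were not simulated.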

Additional observations from a re-analysis of the deposited data

Results flagged for a closer look

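Of 162 groups of 5 libraries, 11 had a library whose distance to its nearest neighbour exceeded 0.71 of the range of the group, where chance gives about 1 in 20. In siDDX41 replicate 2 the summed CPM was low for the box C/D core (357, others 378 to 385), the H/ACA core (374, others 388 to 393), pre-40S factors (336, others 352 to 357) and LSU factors (1471, others 1521 to 1540.05), and NOP16 was low at 31.1 CPM (others 34.3 to 35.0). In siDDX41 replicate 5 GAR1 was low at 42.1 CPM (others 46.1 to 47.7). Each of these values remained above all siCtrl libraries. In siCtrl replicate 2 NOLC1 was low at 124 CPM (others 137 to 138), while GNL3L was high at 37.4 CPM (others 34.9 to 35.5) and MYC was high at 68.4 CPM (others 63.2 to 63.8). In siCtrl replicate 5 WDR3 was low at 103 CPM (others 109.5 to 112) and UTP4 was high at 26.9 CPM (others 25.2 to 25.6). The cause of these values was not tested.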

How the results depend on the processing

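Of the 41 called members 37 kept call and direction under the 17 alternatives other than a minimum fold change, 4 lost the call under at least 1 (NOP14, UTP20, NAT10 and NPM1) and 0 changed direction. Of the 12 members not called, 8 were called under at least 1 alternative and 4 changed sign. The log2 fold change of NOB1 turned positive with DESeq2's test (0.00248), with the correction for GC content (0.0894), without siCtrl replicates 2 and 5 and without siDDX41 replicates 1 and 2, and leaving out each library gave -0.0232 to 0.0107. With the GC correction, which was chosen after seeing the data, the log2 fold change of NOL6 was 0.0696, of NOL11 -0.0128 and of NPM3 0.00358. It also moved by over 1.5 times, with the call kept, in UTP18 (0.09), IMP4 (0.25), BYSL (0.27), NPM1 (-0.14) and SNU13 (-0.09). The cause was not tested.

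With a log2 fold change over 0.25 also required, which removes smaller changes by construction, 22 members were raised and 1 lowered, and 43 other pathway genes were raised and 3 lowered, against 3406 and 4101 of all 16143 genes. At an adjusted p under 0.05, 41 members were raised and 7 lowered, against 5626 and 5794 of all genes. With replicate number as a block, DDX41 had a log2 fold change of -1.99, 4790 of all genes were raised and 5097 lowered, 37 members were raised and 3 lowered, and 67 other pathway genes were raised and 13 lowered. Leaving out each library in turn gave 4648 to 4823 genes raised and 4968 to 5121 lowered, 36 to 38 members raised and 3 to 4 lowered, 65 to 67 other pathway genes raised and 11 to 12 lowered, and log2 fold changes of DDX41 from -2.04 to -1.96.

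DDX52 and DDX47 had the fewest counts of the tested members, and what depth alone does to their calls was not tested. No value is given for genes listed at 0, and a count that overlapping genes share cannot be assigned to either.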
